A study of Mus musculus with 8 samples.

Results

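The hair follicle and the sebaceous gland attached to it are renewed by stem cells that sit in separate places of the same epithelium. Marker genes define these places: the bulge and the hair germ below it feed each new hair, whereas the junctional zone and the isthmus above the bulge feed the upper follicle and the sebaceous gland. Described here are 10 marker genes of these cells in wild type mice and in JunB cKO mice, in which the AP-1 transcription factor JunB is deleted by a Cre recombinase under the K14 promoter. The genes were taken by their symbols from a fixed list of markers, out of 51663 distinct gene names in 3 deposited tables. Lgr5, Cd34, Krt15, Sox9, Lhx2, Nfatc1 and Tbx1 mark the bulge and the hair germ, and Lrig1, Lgr6 and Plet1 mark the upper follicle.

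The mice were C57BL/6 animals, labelled JunB +/+ (wild type) or JunB -/- (JunB cKO). The first table compares keratinocytes that were released by trypsin from unperturbed skin. The second compares skin 4 days after hair plucking, which removes the hair shaft and starts a new hair cycle, and the third compares skin wounds at day 30. There were 8 libraries by the labels: each genotype had 1 from unperturbed skin, 1 from plucked skin and 2 from wounds. By the study's text and methods, the unperturbed and the plucked mice were young adults of about the same age. RNA of 3 samples of a group was pooled before library preparation, and every table holds a single value per genotype for each gene. Without replicate values, neither a spread nor a test can be given for any difference described here. The K14 promoter is used in basal epidermal and follicle cells, so that JunB is deleted in these cells and in the cells that descend from them. Skin cells of other origin in JunB cKO mice still carry JunB. In bulk RNA, fewer cells of a kind and less RNA per cell cannot be told apart.

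Values are FPKM, the number of reads scaled to transcript length and to the depth of the library, which allows levels of different genes to be compared within 1 library. Differences between genotypes are log2((cKO + 1)/(WT + 1)) of the FPKM values, where 1 equals 2-fold. The 3 tables were normalized separately, so levels from different tables are set side by side only as a description. The deleted gene, Junb, was reduced in every table, with JunB cKO at 11.7% of the wild type FPKM in keratinocytes, 28.8% after hair plucking and 46.2% in wounds. The JunB cKO library of unperturbed keratinocytes stood apart from the others. It had reads in 86.2% of 1481 sensory receptor genes, which skin does not use, at a median of 0.543 FPKM, against 4.93% and a median of 0 in wild type. In that library 1 FPKM of a 1 kb transcript stood for about 3.92 reads, as opposed to 13.3 in wild type. The least covered marker there, Tbx1, rested on about 110 reads and Krt15 on about 8710. In the other libraries with an estimate, no marker rested on fewer than about 280 reads.

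All 10 markers were found in all 3 tables, but Plet1 is listed in the unperturbed table under its older symbol, 1600029D21Rik. Their levels were far from background. The lowest FPKM of any marker was 3.49, that of Lgr6 in wild type wounds, and the highest 1531, that of Krt15 after hair plucking in wild type. JunB cKO and wild type differed little for most of them. In unperturbed keratinocytes and in wounds, 0 of 10 markers were at least 2-fold apart in either direction, and all 10 were within 1.5-fold. After hair plucking 9 of 10 were within 1.5-fold, and Lhx2 alone was past 2-fold, higher in JunB cKO. The share of all loci within 1.5-fold was not counted, so this closeness is not shown to be particular to the markers. Among all loci that reached 1 FPKM in a genotype, JunB cKO keratinocytes had 15.4% past 2-fold upwards and 1.42% past 2-fold downwards. After hair plucking these shares were 18.4% and 16.0%, and in wounds 5.68% and 5.19%. The single marker past the limit after hair plucking was thus not more than the share seen over all loci. The upward share in unperturbed keratinocytes depended on low values. It was 2.89% when 3 FPKM were required, a minimum chosen after the values were seen. The other shares changed less at that minimum. The downward share in unperturbed keratinocytes was 1.69%. Upward and downward shares were 16.1% and 14.7% after hair plucking, and 4.98% and 4.19% in wounds.

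**Figure D1:**
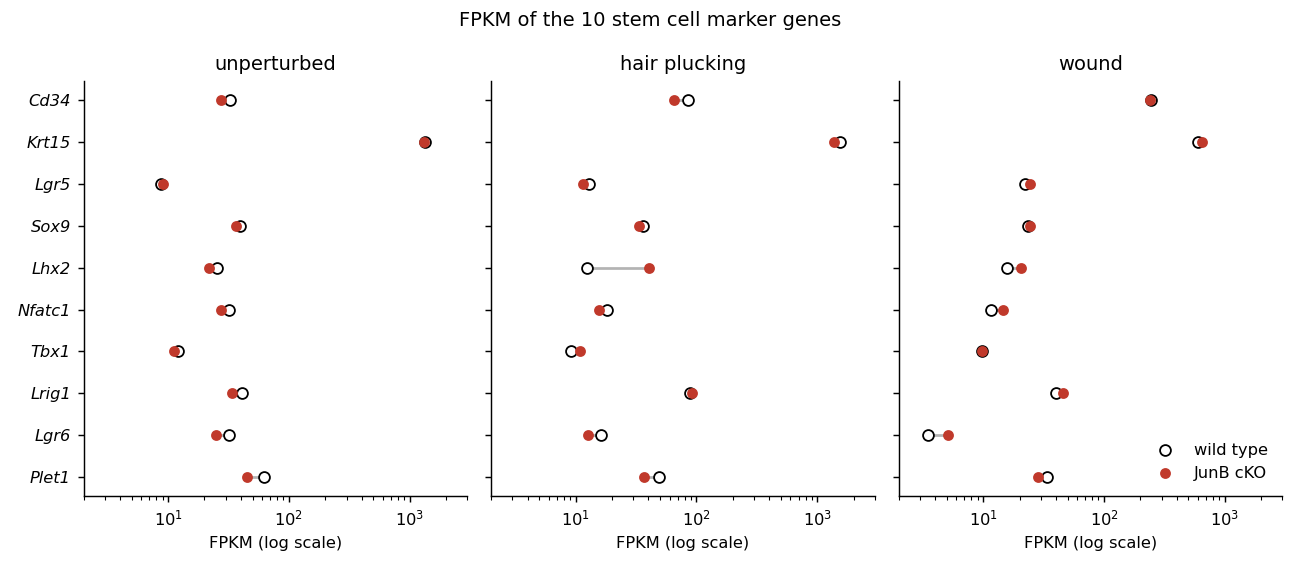
FPKM on a log axis for the 10 markers in each table, with open circles for wild type and red circles for JunB cKO, 1 value each. The circles lie close together for all markers but Lhx2 after hair plucking, at 12.4 in wild type as against 40.8 in JunB cKO.

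The direction of the small differences was not shared by the tables. In unperturbed keratinocytes 9 of 10 markers were lower in JunB cKO. Their median log2 ratio was -0.21. Loci that reached 1 FPKM in wild type and JunB cKO alike had a median of -0.15 there. Relative to it the markers' median was -0.06, with 6 markers lower and 4 higher. After hair plucking 7 markers were lower and 3 higher, with a median of -0.15 beside 0.0041 for all such loci. In wounds 8 markers were higher and 2 lower, with a median of 0.11 beside 0.01. Plet1 and Cd34 were the only markers that were lower in JunB cKO in all 3 tables, also after the median of all such loci was subtracted. None was higher in all 3. These directions are those of the FPKM. Divided by the basal keratins, as described below, most markers were instead lower in JunB cKO in wounds and higher after hair plucking.

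Among the transcription factors of the bulge, Lhx2 showed the largest difference. Lhx2 is a LIM homeodomain factor of bulge and hair germ cells, on chromosome 2 of GRCm38 from 38339281 to 38369733 on the plus strand (Ensembl gene ENSMUSG00000000247.11). Its FPKM was 25.4 in wild type as against 21.8 in JunB cKO keratinocytes, 12.4 and 40.8 after hair plucking, and 15.6 and 20.7 in wounds. The plucked wild type value was the lowest of the 6 and the plucked JunB cKO value the highest, so that the genotypes were 3.29-fold apart (log2 ratio 1.64). The log2 ratio was -0.21 in unperturbed keratinocytes and 0.38 in wounds. Antisense genes lie within the Lhx2 locus, and their part in the Lhx2 values was not tested. Gm13584 had an FPKM of 5.95 in wild type as against 5.21 in JunB cKO after hair plucking, and Gm27197, higher in JunB cKO like Lhx2, was listed at 0 and at 3.07.

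Lhx2 has an upstream and a downstream start in RefSeq. The locus of the unperturbed table begins at the downstream start, at position 38351308, and that of the other tables at the upstream start. Because Lhx2 is the marker past 2-fold, the promoter of its downstream start is shown (GRCm38.p6, chr2:38351058-38351357, plus strand). It reaches from 250 bases before to 50 bases after that start. TGANTCA, with any base at N, takes in TGACTCA and TGAGTCA, the letters that AP-1 dimers of Jun and Fos proteins bind. The promoter holds neither TGANTCA nor TGACGTCA, the related cyclic AMP response element. No base is therefore in capitals. Lhx2 passed 2-fold only after hair plucking, where the locus begins at the upstream start. The window of the upstream start (chr2:38339031-38339330) is not shown and holds neither motif either.
Lhx2: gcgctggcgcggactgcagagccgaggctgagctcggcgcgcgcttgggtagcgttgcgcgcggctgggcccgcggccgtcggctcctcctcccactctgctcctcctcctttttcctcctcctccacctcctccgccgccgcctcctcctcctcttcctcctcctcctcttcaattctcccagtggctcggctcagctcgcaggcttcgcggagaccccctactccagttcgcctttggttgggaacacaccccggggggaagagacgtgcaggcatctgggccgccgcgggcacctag

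Sox9, the SRY-box factor that is needed to form and keep the bulge, was among the steadiest markers. It lies on chromosome 11 from 112782224 to 112787760 on the plus strand (ENSMUSG00000000567.5). Its FPKM was 39.4 in wild type as against 36.5 in JunB cKO keratinocytes, 35.8 and 33.4 after hair plucking, and 23.3 and 24.2 in wounds, where JunB cKO had 104% of the wild type value. The genotypes were at most 1.08-fold apart in all 3 tables, and levels were lowest in wounds in both genotypes.

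Nfatc1, a calcineurin-dependent factor that keeps bulge cells quiescent, is on chromosome 18 from 80606205 to 80713071 on the minus strand (ENSMUSG00000033016.16). It was at 31.9 FPKM in wild type as against 27.3 in JunB cKO keratinocytes, 18.0 and 15.6 after hair plucking, and 11.7 and 14.5 in wounds. JunB cKO thus had 85.8% and 86.5% of wild type in the first pair of tables and 124% in wounds. Tbx1, a T-box factor of bulge stem cells on chromosome 16 from 18580979 to 18590671 on the minus strand (ENSMUSG00000009097.10), was at 12.1 and 11.2 FPKM, 9.22 and 10.9, and 9.79 and 9.79, respectively. Its 6 values were within 1.32-fold of each other, the narrowest range of all 10 markers.

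The keratin of the bulge was the most abundant marker. Krt15, a type I keratin of bulge cells that is also made in the basal epidermal layer, lies on chromosome 11 from 100131758 to 100135928 on the minus strand (ENSMUSG00000054146.8). Its FPKM was 1339 in wild type as against 1308 in JunB cKO keratinocytes, 1531 and 1382 after hair plucking, and 603 and 647 in wounds. JunB cKO had 97.7%, 90.3% and 107% of the wild type level. Krt15 exceeded over 99% of loci at 1 FPKM or more in every genotype and table. In wounds its FPKM was 0.450 times that of unperturbed keratinocytes in wild type and 0.494 times in JunB cKO. The summed FPKM of 5 basal epidermal markers was also lowest in wounds, at 1336 in wild type as against 1601 in JunB cKO, beside 4097 and 4042 in unperturbed keratinocytes.

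The cell surface markers of the bulge and hair germ are Cd34 and Lgr5. Cd34, a sialomucin on chromosome 1 from 194938819 to 194961279 on the plus strand (ENSMUSG00000016494.9), is used to sort bulge cells but is also made by endothelial cells, mast cells and some fibroblasts. It was at 32.5 FPKM in wild type as against 27.6 in JunB cKO keratinocytes, 84.9 and 65.3 after hair plucking, and 246 and 242 in wounds. The genotypes were closest in wounds, where JunB cKO had 98.5% of wild type, and farthest apart after hair plucking, with 76.9%. Both wound values were above both plucked values, and these above both keratinocyte values. The antisense gene Gm16897, which overlaps the end of Cd34, had an FPKM of at most 3.01, and Cd46, which shares the deposited Cd34 locus after hair plucking and in wounds, of at most 4.51.

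Marker lists of the other cells that make Cd34 moved in the same order over the tables, and their part in the Cd34 values was not tested. The 7 fibroblast markers, all of them listed above 0, summed to 14.4 FPKM in wild type as against 14.2 in JunB cKO keratinocytes, 5152 and 1869 after hair plucking, and 10716 and 13573 in wounds. Of the 7 endothelial markers, all 7 were listed in unperturbed keratinocytes, where they summed to 0.703 and 3.80 FPKM, and 6 in the other tables, where they summed to 71.4 and 54.3 after hair plucking and to 136 and 184 in wounds. The 4 mast cell markers summed to 0.122 and 3.26, 44.3 and 42.7, and 100.1 and 162, respectively. Among these, Cma1 and Tpsb2 were at 0 in wild type keratinocytes, and Tpsb2 at 0 in both plucked columns. The keratinocyte libraries thus held little RNA of these cells, and Cd34 was at 27.6 FPKM or more there. By the labels the plucked pair is keratinocyte tissue too, but its title names skin biopsies, and the fibroblast sums are those of a sample with dermis.

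Lgr5, a receptor for R-spondins that strengthens Wnt signals in the lower bulge and hair germ, lies on chromosome 10 from 115450311 to 115587780 on the minus strand (ENSMUSG00000020140.15). Its FPKM was 8.65 in wild type as against 9.12 in JunB cKO keratinocytes, 12.9 and 11.5 after hair plucking, and 22.3 and 24.3 in wounds. The genotypes were within 1.13-fold of each other in each table. Lgr5 was the only marker that was higher in JunB cKO in unperturbed keratinocytes, by a log2 ratio of 0.07. With the receptor gene median of the same library subtracted, which was decided after the values had been seen, that difference turned to -0.01. Levels in wounds were 2.57 times those of unperturbed keratinocytes in wild type and 2.67 times in JunB cKO.

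Its close relative Lgr6, the R-spondin receptor of the isthmus, went the other way over the tables. Lgr6 is on chromosome 1 from 134983301 to 135105276 on the minus strand (ENSMUSG00000042793.13). It was at 31.9 FPKM in wild type as against 25.1 in JunB cKO keratinocytes, 16.1 and 12.5 after hair plucking, and 3.49 and 5.14 in wounds. JunB cKO had 78.7% and 78.1% of wild type in keratinocytes and plucked skin, and 147% in wounds (log2 ratio 0.45), the largest difference of any marker in that table. In wild type, Lgr6 was above 86.9% of expressed loci in unperturbed keratinocytes, above 65.5% after hair plucking and above 31.1% in wounds. The lowest of the 6 levels was thus 9.12-fold below the highest, the widest range of all markers. Lgr6 was above Lgr5 in both keratinocyte and both plucked columns, whereas in wounds Lgr5 was above Lgr6 in both genotypes.

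Plet1 and Lrig1 complete the upper follicle. Plet1, the surface protein of the isthmus that the MTS24 antibody recognizes, lies on chromosome 9 from 50494525 to 50505482 on the plus strand (ENSMUSG00000032068.14). Its FPKM was 62.7 in wild type as against 44.99 in JunB cKO keratinocytes, 49.0 and 37.1 after hair plucking, and 33.9 and 28.2 in wounds. JunB cKO had 71.7%, 75.6% and 83.1% of the wild type value, with log2 ratios of -0.47, -0.40 and -0.26. Plet1 had the lowest log2 ratio of the 10 markers in all 3 tables, and none of its differences reached 1.5-fold. The antisense gene Plet1os, which spans Plet1 and is listed in the unperturbed table as 2310014F07Rik, its RefSeq synonym, was at most at 1.74 FPKM.

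RefSeq promoters were found for 6 of the 10 markers, in 8 windows that reach from 250 bases before to 50 bases after a start. Plet1 alone held TGANTCA, and no marker held TGACGTCA. Both motifs read the same on either strand. Over all 32851 such windows, 7.81% held TGANTCA and 1.79% TGACGTCA. The match begins 144 bases before the start of Plet1 (GRCm38.p6, chr9:50494275-50494574, plus strand) and is in capitals in the promoter, which is shown because Plet1 was lower in JunB cKO in every table. The match reads TGATTCA, with T at its centre, where the AP-1 letters given above have C or G. The share of 7.81% likewise takes any base there. A match of letters does not show binding.
Plet1: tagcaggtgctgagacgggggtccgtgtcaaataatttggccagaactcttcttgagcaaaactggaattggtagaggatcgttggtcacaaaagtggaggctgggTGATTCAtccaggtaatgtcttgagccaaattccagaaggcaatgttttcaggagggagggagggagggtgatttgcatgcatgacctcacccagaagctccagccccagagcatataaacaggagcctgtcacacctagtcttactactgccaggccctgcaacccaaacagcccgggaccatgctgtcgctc

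Lrig1, a transmembrane protein that restrains EGF receptor signaling and marks junctional zone stem cells, lies on chromosome 6 from 94604529 to 94700158 on the minus strand (ENSMUSG00000030029.14). It was at 41.1 FPKM in wild type as against 33.8 in JunB cKO keratinocytes, 89.2 and 91.5 after hair plucking, and 40.2 and 45.8 in wounds. JunB cKO had 82.2%, 103% and 114% of wild type, respectively. Plucked levels were above all others in both genotypes, 2.17 times the keratinocyte level in wild type and 2.71 times in JunB cKO. Besides Lrig1, the wild type FPKM was higher after hair plucking than in unperturbed keratinocytes for Cd34, Lgr5 and Krt15.

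Because keratinocytes and skin biopsies differ in their share of epithelium, each marker was also divided by the summed FPKM of the basal keratins Krt5 and Krt14 of the same library, a step added after the values had been seen. Per 1000 FPKM of these keratins, Krt15 stood at 352 in wild type as against 344 in JunB cKO keratinocytes, 500.1 and 541 after hair plucking, and 571 and 488 in wounds. Sox9, whose FPKM was lowest in wounds, was highest there on this scale, at 22.1 and 18.3 as opposed to 10.4 and 9.60 in keratinocytes. Lgr6 remained lowest in wounds, with 3.31 in wild type as against 3.88 in JunB cKO beside 8.38 and 6.60 in keratinocytes. On this scale Lhx2 was at 4.05 in wild type as against 15.96 in JunB cKO after hair plucking, and at 14.8 and 15.6 in wounds. In wounds most markers were lower in JunB cKO on this scale, all but Lgr6 and Lhx2, although most were higher by FPKM. After hair plucking most were higher, all but Lgr6, Cd34 and Plet1, although most were lower by FPKM. Krt5 and Krt14 themselves moved apart after hair plucking. Krt5 was at 614 in wild type as against 845 in JunB cKO, and Krt14 at 2446 and 1709. In wounds Krt5 was at 362 and 357, and Krt14 at 694 and 967. This scale thus carries the differences of both keratins too.

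**Figure D2:**
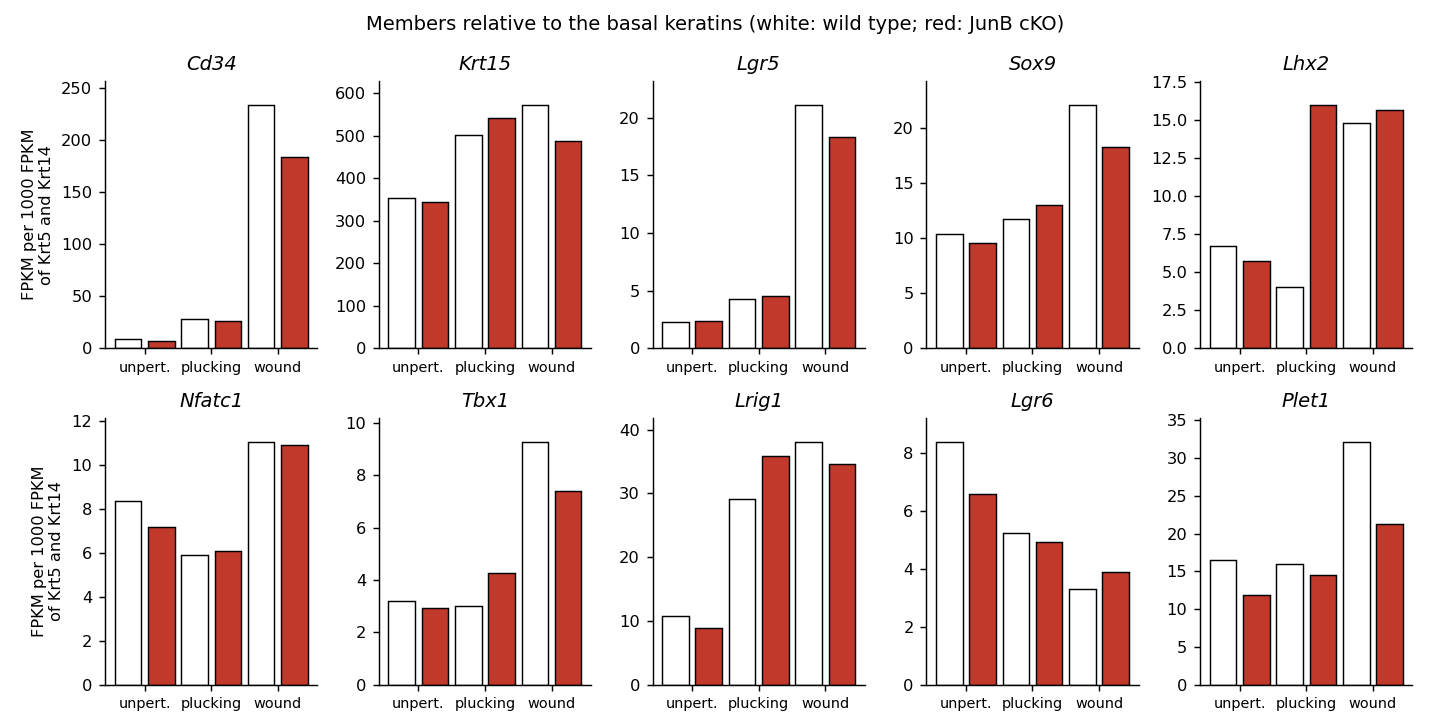
FPKM of each marker per 1000 FPKM of Krt5 and Krt14 together, in white bars for wild type and red bars for JunB cKO, 1 value each and axes from 0. Lgr6 is lowest in wounds, whereas Lgr5, Sox9, Cd34, Nfatc1, Tbx1 and Plet1 are highest there in both genotypes.

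Other genes of the follicle were compared in 4 lists with 44 symbols, of which 43 are listed in each table. In JunB cKO, 3 of them were past 2-fold upwards in unperturbed keratinocytes, and 1 in wounds, with 0 past it downwards in these tables. Plucked skin had 9 that were higher against 3 that were lower. These counts can be read against the shares of all loci given above. The 9 of 43 that were higher after hair plucking were close to the 18.4% of all loci.

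Of the 7 listed genes of the growing hair matrix, 4 were past 2-fold after hair plucking, all of them higher in JunB cKO. Krt71, a keratin of the inner root sheath, was at 26.1 FPKM in wild type as against 168 in JunB cKO. Lef1, a factor that carries Wnt signals in hair precursors, was at 1.46 and 6.94. Shh, the hedgehog ligand of the hair germ and matrix, was listed at 0 in wild type but at 2.67 in JunB cKO, and Foxn1, the factor behind the nude phenotype, was at 0.0814 and 2.11. Msx2 and Dlx3 were within 2-fold, and Hoxc13 was at 5.34 and 2.71. In wounds 0 of these 7 genes were past 2-fold, and Krt71 was at 1623 in wild type as against 1197 in JunB cKO. In unperturbed keratinocytes Shh and Dlx3 were past the limit, with Shh at 0.312 and 2.03 FPKM and Dlx3 at 6.12 and 13.7, in the JunB cKO library where receptor genes had a median of 0.543.

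Of 18 other genes of the bulge and hair germ, 4 were past 2-fold upwards and 2 downwards in plucked JunB cKO skin, and 0 in the other tables. Axin2, a target of Wnt signals, was at 6.51 FPKM in wild type as against 24.9 in JunB cKO, Gli1, a target of hedgehog signals, at 1.24 and 5.38, and Sfrp1, a secreted Wnt antagonist, at 14.0 and 39.1. Col17a1, the hemidesmosomal collagen that anchors bulge cells, was at 179 and 369. In the other direction, Tcf7l1, a repressor of Wnt targets in the bulge, was at 14.0 and 1.94, and Runx1 at 40.1 and 16.0. In unperturbed keratinocytes Axin2 was at 20.8 in wild type as against 19.5 in JunB cKO.

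Among the 6 genes of the upper follicle and sebaceous duct, Cst6, the cystatin of this region, was at 267 in wild type as against 70.6 in JunB cKO after hair plucking. It was the only one past 2-fold in any table. Krt79, a keratin of the duct, was at 503 and 264 after hair plucking, just within the limit. Their median log2 ratio there was -0.48, beside -0.33 for Lrig1, Lgr6 and Plet1. In JunB cKO 1 of the 6 was higher there, and so was Lrig1, at 0.04. The 12 relatives and partners of the markers comprise Lgr4, the R-spondins, the ligases Znrf3 and Rnf43, and other Lrig and Nfat genes. Znrf3, which removes Wnt receptors and is itself a Wnt target, was at 4.16 in wild type as against 10.01 in JunB cKO after hair plucking. Rspo1, a ligand of Lgr5 and Lgr6, was at 2.84 and 10.5 in wounds, and Rspo4 at 0.0273 and 1.29 in unperturbed keratinocytes, near the receptor gene level of that JunB cKO library. Lgr4, the third R-spondin receptor, was above Lgr5 in all 6 columns, at 58.9 and 54.7 in wounds.

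**Figure D3:**
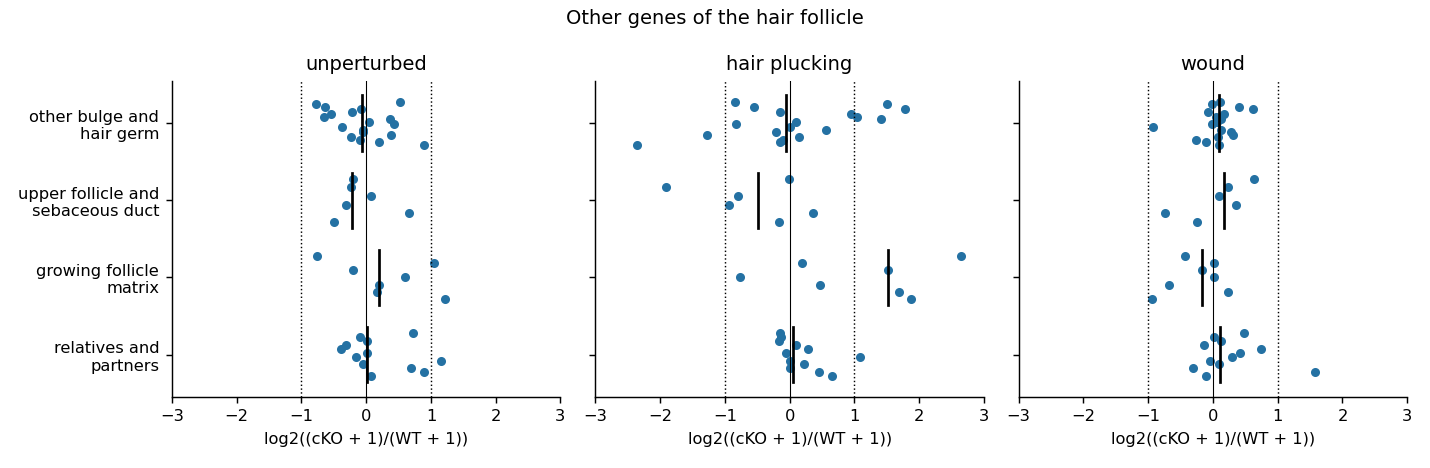
Log2 ratio of JunB cKO over wild type for the genes of 4 follicle lists in each table, 1 point per gene, with a black bar at the median of the list and dotted lines at 2-fold. The matrix genes after hair plucking have a median of 1.53, and all other medians lie between -0.48 and 0.19.

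Several marker lists of other cells also differed between the genotypes after hair plucking, beside Lhx2. In JunB cKO the fibroblast markers summed to 0.363 times the wild type value, with 4 of 7 at least 2-fold lower. The leukocyte markers summed to 0.350 times, with 5 of 6 lower, the adipocyte markers to 0.341 times, with 2 of 5 lower, and the skeletal muscle markers to 0.176 times, with 4 of 4 listed lower. Adipoq and Cd3e were the exceptions in these lists and were higher in JunB cKO. Adipoq was at 8.76 FPKM in wild type as against 17.4 in JunB cKO, and Cd3e at 2.53 and 2.64. None of the markers in these lists was at 0 in either plucked column. Conversely, 3 of 5 melanocyte markers were at least 2-fold higher, with a sum of 28.5 in wild type as against 51.8 in JunB cKO and Mlana at 0 in wild type. Sums of the basal and suprabasal epidermal markers were 0.885 and 1.28 times those of wild type, respectively. The basal sum was lower through Krt14 alone. The other 4 of 5 basal markers were higher in JunB cKO, with Itgb4 past 2-fold at 27.8 FPKM in wild type as against 58.7. The part of these differences in the values of Lhx2 and Cd34 was not tested. Sebocyte markers, all listed above 0, summed to 55.5 FPKM in wild type as against 26.6 in JunB cKO keratinocytes, 365 and 214 after hair plucking, and 91.2 and 129 in wounds. In wounds, all of these lists but that of the melanocytes had sums in JunB cKO between 1.03 and 1.62 times the wild type value.

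**Figure D4:**
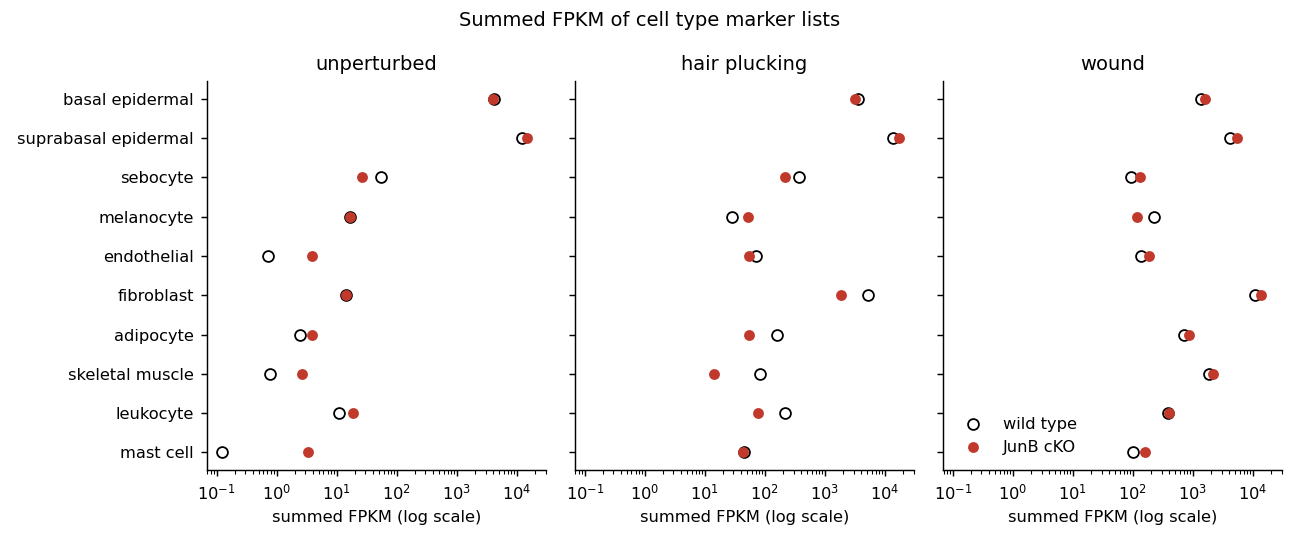
Summed FPKM on a log axis of 10 lists of cell type markers, with open circles for wild type and red circles for JunB cKO. Fibroblast, muscle, adipocyte and leukocyte sums lie left of wild type in JunB cKO only after hair plucking, apart from fibroblasts in unperturbed keratinocytes, where the sums are 14.4 and 14.2.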

How the data were processed

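The authors trimmed and filtered single-end reads of rRNA-depleted total RNA, aligned them with TopHat or HISAT2 to the mouse genome GRCm38 (mm10 in the labels), assembled loci with Cufflinks and compared genotypes with Cuffdiff. The deposited FPKM values were calculated by the authors, 1 per genotype and gene locus. Their fold changes, test statistics, p-values and q-values hold the authors' own comparison and were not used. Genotypes were taken from names inside the tables, and the conditions of the plucked and wound tables from the table names and the labels.

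Where a symbol had several loci, that with the highest FPKM over both genotypes was taken. Older symbols were matched through RefSeq synonyms. A pseudocount of 1 FPKM, a minimum of 1 FPKM and a limit of 2-fold were applied. Numbers of reads are estimates from the steps of low FPKM values in receptor genes of 880 to 1000 bp times the longest coding transcript of a gene; they cover counting error only, and plucked wild type gave no estimate, with 1 such locus. Gene coordinates are 1-based and come from GENCODE M21, and promoters from RefSeq (GRCm38.p6). Whether Cuffdiff used the strand is not given in the sources used here, so antisense reads may be shared.

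All markers are named in the text; of every other list, up to 3 genes per direction and table past 2-fold at an FPKM of at least 1 were named, and further genes were chosen after their values were seen (Col17a1, Foxn1, Msx2, Dlx3, Hoxc13, Krt79, Krt5, Krt14 and Lgr4, and values in a table where a gene was not past the limit). Markers and lists were chosen with earlier results of these data known. Alternatives were a pseudocount of 0.1, centring, summed loci, a 1.5-fold limit and other minima. Only the 2-fold limit was tried on simulated data, with changes set well past it. The software was pandas 2.3.3, numpy 2.4.6 and Python 3.11.15.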

Additional observations from a re-analysis of the deposited data

Results flagged for a closer look

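For 8 markers the log2 ratio of JunB cKO over wild type had opposite signs in a pair of tables. With 1 value per genotype these differences were not tested. The difference between the tables was 1.85 for Lhx2, between hair plucking and unperturbed keratinocytes, and 0.32 for Tbx1, between the same tables. Between wounds and unperturbed keratinocytes it was 0.78 for Lgr6, 0.50 for Nfatc1, 0.46 for Lrig1 and 0.16 for Sox9. Between wounds and hair plucking it was 0.28 for Lgr5 and 0.25 for Krt15.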

How the results depend on the processing

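The counts of markers past 2-fold in each table and direction were the same with a pseudocount of 0.1, after centring, with all loci of a symbol summed, with a limit of 1.5-fold, among markers with an FPKM of at least 1, with the receptor gene median subtracted, and without Plet1 in the unperturbed table. The median log2 ratio of the markers kept its sign under these settings, apart from the limit, which does not enter it. Several settings could not change these results. Every marker had a single locus throughout, and none was below 3.49 FPKM. The receptor gene median was 0 in both genotypes after hair plucking and in wounds. Division by the basal keratins was not among the settings. In unperturbed keratinocytes the median log2 ratio lay between -0.24, with the receptor median subtracted, and -0.06, after centring. Signs of single markers turned for 3 of 10 in unperturbed keratinocytes and for 1 in wounds after centring, and for 1 in unperturbed keratinocytes with the receptor median subtracted. The subtraction and the omission of Plet1 were chosen after the data had been seen. The shares of all loci past the limit depend on the minimum: without one they were 9.31% higher and 0.858% lower in unperturbed keratinocytes, 6.50% and 5.65% after hair plucking, and 2.16% and 1.98% in wounds. No paired analysis was possible because the wound table holds 1 value per genotype, which also means that no wound library could be left out. Differences of the size seen for most markers cannot be told apart from the spread between mice or libraries, which is unknown here.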
